A study of Mus musculus with 24 samples.

Results

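Genes of osteoclasts and of cell fusion in macrophages, 10 in all, were followed through the IL-4 response of bone marrow-derived macrophages: Acp5, Ctsk, Atp6v0d2, Dcstamp, Ocstamp, Oscar, Nfatc1, Itgb3, Tnfrsf11a and Cdh1. They were chosen by name, with earlier results of these data known. Each probe set (a group of probes on the array that reads 1 transcript) whose single annotated symbol was one of these names was kept. This gave 18 of 45037 tested probe sets for 10 of 18193 genes. Where a gene had several probe sets, 1 of them, taken by its type and identifier and not by its values, represents the gene in the counts, and the others are described beside it. The macrophages came from C57Bl/6 mice, 3 with a deletion of the IL-4-activated transcription factor STAT6 (KO, mice 4, 5 and 6) and 3 wild-type (WT, mice 1, 2 and 3). Each animal gave 4 cultures, kept 10 days in M-CSF (macrophage colony-stimulating factor) at 20 ng/ml. The KO cultures were KO IL-4 RSG (IL-4 at 20 ng/ml and the PPARγ ligand rosiglitazone, RSG, at 1 µM), KO IL-4 vehicle (IL-4 with DMSO and ethanol, the solvents of RSG), KO control RSG (RSG without IL-4) and KO control vehicle (solvents alone), and the WT cultures were WT IL-4 RSG, WT IL-4 vehicle, WT control RSG and WT control vehicle, made in the same ways. Every group thus holds 3 arrays, 1 per animal, 24 in all. M-CSF was common to the 8 groups, and the labels name no RANK ligand, the cytokine that drives osteoclast formation, in any medium. The KO animals carried the deletion in all cells and were purchased as a line, while the cultures are whole populations grown from femoral marrow and not sorted cells.

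Osteoclasts are the multinucleated cells that dissolve bone, and they form when macrophage precursors fuse with each other. RANK ligand and M-CSF drive this in bone, through the receptor RANK and the transcription factor NFATc1, and the mature cell then seals itself to bone by the integrin β3, pumps acid through a V-ATPase and secretes cathepsin K. IL-4 is known to hinder osteoclast formation and also to make macrophages fuse into multinucleated giant cells, a process in which DC-STAMP and E-cadherin take part. The comparisons here therefore ask which genes of the 2 programmes respond to IL-4 alone, whether the response is present in Stat6 KO cells, and whether the PPARγ ligand changes it.

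RefSeq promoters (build GRCm38.p6, 250 bases before to 50 after an annotated start) were available for 4 of the 10 genes, with 3 starts for Acp5 and 1 each for Ctsk, Oscar and Tnfrsf11a. The 3 windows below are those that held a match to any motif searched. They belong to 2 genes called with IL-4 in WT cells, Acp5 and Ctsk, and to 1 that was not, Oscar. Each runs 5′ to 3′ on the gene's own strand, and capitals mark every match to one of the motifs named after them.
Acp5, chr9:22130549-22130848, minus strand: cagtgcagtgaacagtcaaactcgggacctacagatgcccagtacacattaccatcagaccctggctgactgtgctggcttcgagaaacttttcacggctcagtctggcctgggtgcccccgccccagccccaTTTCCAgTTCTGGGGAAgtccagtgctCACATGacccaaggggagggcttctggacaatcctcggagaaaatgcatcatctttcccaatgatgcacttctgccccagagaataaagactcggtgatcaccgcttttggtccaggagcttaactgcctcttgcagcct
Ctsk, chr3:95498960-95499259, plus strand: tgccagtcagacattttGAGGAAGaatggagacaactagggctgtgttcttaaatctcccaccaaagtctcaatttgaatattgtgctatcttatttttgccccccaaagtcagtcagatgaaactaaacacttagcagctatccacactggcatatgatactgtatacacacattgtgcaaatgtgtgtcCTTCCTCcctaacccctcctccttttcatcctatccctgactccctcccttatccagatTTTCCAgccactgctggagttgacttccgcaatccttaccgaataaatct
Oscar, chr7:3616108-3616407, minus strand: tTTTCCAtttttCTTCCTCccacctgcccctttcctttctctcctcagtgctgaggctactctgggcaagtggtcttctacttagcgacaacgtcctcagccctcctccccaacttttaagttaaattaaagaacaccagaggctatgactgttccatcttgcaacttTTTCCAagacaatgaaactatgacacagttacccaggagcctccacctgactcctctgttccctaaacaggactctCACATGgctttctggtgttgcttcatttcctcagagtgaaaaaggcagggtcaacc
The motifs searched on both strands were the STAT6 spacing (TTC and GAA with any 4 bases between), the general STAT spacing TTCNNNGAA, the NFAT core TGGAAA, the AP-1 site TGANTCA, the DR1 element read by PPARγ with RXR (AGGTCA repeated after any 1 base), the PU.1 site GAGGAAG and the MITF E-box CATGTG, and no match overlapped another. The Acp5 window held 1 match to the STAT6 spacing, TTCTGGGGAA at bases 141 to 150, between the NFAT core at bases 134 to 139 and the E-box at bases 161 to 166. That spacing occurred in 6.95% of the 32851 promoters of the same length, the NFAT core in 21.4% and the E-box in 14.2%. These are shares per window, whereas the Acp5 window is shown because it held matches. The Ctsk window had PU.1 matches at bases 18 to 24 and 192 to 198 and an NFAT core at bases 251 to 256, and the Oscar window had NFAT cores at bases 2 to 7 and 169 to 174, a PU.1 site at bases 13 to 19 and the E-box at bases 245 to 250. PU.1 matches stood in 13.6% of all promoters, the general STAT spacing in 8.3%, AP-1 in 7.81% and DR1 in 0.0396%. The other 2 Acp5 starts and the Tnfrsf11a start held none of the 7 motifs. A match is a description of letters in a window and says nothing about binding.

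All values are log2 of the deposited ratio, which sets each probe set against its own median over the arrays, so a value of 0 is that median, levels of different probe sets cannot be ranked, and the macrophage label cannot be checked as a level. The 2 Stat6 probe sets separated the genotypes, with KO arrays at -2.03 to -1.56 and WT arrays at 0.73 to 1.15 for the one that represents the gene, and each KO array was below each WT array. The mean of 9 macrophage markers was -0.21 to 0.14 in KO arrays, -0.77 to -0.33 in WT IL-4 arrays and 0.0025 to 0.25 in WT control arrays, so that the WT IL-4 arrays lay below all others. With IL-4 in WT vehicle cells Cd14 (-2.51 ± 0.16), Fcgr1 (-2.27 ± 0.25) and C1qa (-1.54 ± 0.17) fell and 1 of the 9 rose. These are the groups in which Acp5, Ctsk, Ocstamp and Atp6v0d2 were highest, and the part of this shift in their changes was not tested. Markers of other blood cells rose with IL-4 in KO vehicle cultures: 9 of 9 mast cell and basophil genes, 11 of 11 neutrophil and granule genes, 9 of 10 lymphocyte genes, 3 of 5 eosinophil genes, 5 of 9 megakaryocyte and erythroid genes and 2 of 8 dendritic cell genes. The mean of the mast cell and basophil genes was 4.95 to 5.34 in KO IL-4 vehicle arrays, against -1.64 to -0.83 in KO control vehicle arrays, and -0.50 to -0.029 in WT IL-4 vehicle arrays, where 0 of the 9 genes were called and 8 of the 11 neutrophil genes fell. With IL-4 in WT vehicle cultures the dendritic cell genes Zbtb46 (2.87 ± 0.76), Xcr1 (2.43 ± 0.71) and Batf3 (2.23 ± 0.28) rose, as did the lymphocyte gene Gzmb (4.58 ± 1.27). There the lymphocyte gene Cd2 (-1.75 ± 0.59), the eosinophil gene Prg2 (-3.68 ± 0.85) and the megakaryocyte gene Ppbp (-1.33 ± 0.42) fell. The stromal genes Col1a2 (-5.53 ± 1.52) and Sparc (-5.21 ± 1.53) fell as well, the only stromal genes called there. The part of such cells in the WT changes was not tested. A pair of arrays stood apart in ways that touch the genes described here. WT control vehicle of mouse 3 had a mean of 1.38 over 10 genes of IL-4 activation, against -1.33 and -1.19 in its group. KO control RSG of mouse 6 had a mean of 3.13 over 14 stromal genes, against 0.77 and 1.08 in its group. All KO control RSG arrays were above the other KO arrays in these stromal genes. KO control vehicle arrays lay at -0.48 to 0.61. KO IL-4 vehicle arrays lay at -0.85 to -0.34 and KO IL-4 RSG arrays at -0.78 to -0.62. Leaving out the mouse 6 array does not remove this shift, and its part in the comparisons with that group was not tested. The mouse 3 array was also the highest of its group for genes of mast cells and basophils (0.61, against -1.26 and -1.46) and lymphocytes (0.56, against -0.96 and -1.45). The same held for eosinophil (0.90, against -1.57 and -0.55), dendritic cell (0.42, against -1.56 and -1.02) and neutrophil genes (0.67, against -0.54 and -0.16). Where leaving out either array of this pair ended or made an IL-4 or RSG call of the 10 genes, or moved a called value by over 1.5 times, the value or adjusted p without it is given. For the genes of the marker and pathway lists no values without these arrays are given. WT control vehicle of mouse 2 had the highest stromal mean of its group, 1.77 against 0.71 and -0.58. Leaving that array out ended or made 0 calls of the 18 probe sets. In bulk cultures, fewer cells of a type and less RNA per cell cannot be told apart.

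In KO cells with vehicle 3 of the 10 genes rose with IL-4, Acp5, Dcstamp and Cdh1, and 0 fell, where 4.25% of all probe sets rose and 7.26% fell (limma, a linear model of each probe set over all 24 arrays, where a call below needs a Benjamini-Hochberg adjusted p under 0.05 together with a 1.5-fold change or more). In KO cells with RSG Atp6v0d2 joined these 3, against 3.19% of all probe sets higher and 3.64% lower. In WT cells with vehicle 7 of the 10 rose and 0 fell, where 7.01% of all probe sets rose and 5.94% fell. The 7 were Acp5, Ctsk, Atp6v0d2, Dcstamp, Ocstamp, Itgb3 and Cdh1, and they were called in WT cells with RSG as well, where 7.87% of all probe sets rose and 5.59% fell. Since the 10 were chosen with earlier results of these data known, the shares describe the scale of the counts and do not test them. With vehicle the median change of the 10 was 0.84 in KO cells, against -0.14 for all probe sets, and 3.22 in WT cells, against 0.088. With RSG it was 0.74 in KO cells, against -0.070, and 3.54 in WT cells, against 0.064. Fitted on the compared arrays alone, or by the methods' t-test, the calls of Dcstamp, Ocstamp and Cdh1 in WT vehicle cells were lost (adjusted p 0.0676 to 0.136), at an unchanged size. The direction split of all probe sets in KO cells with vehicle depends on scaling: 36.9% of calls were higher in the deposited values, 47.6% after quantile normalization and 54.0% after centring each array.

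**Figure D1:**
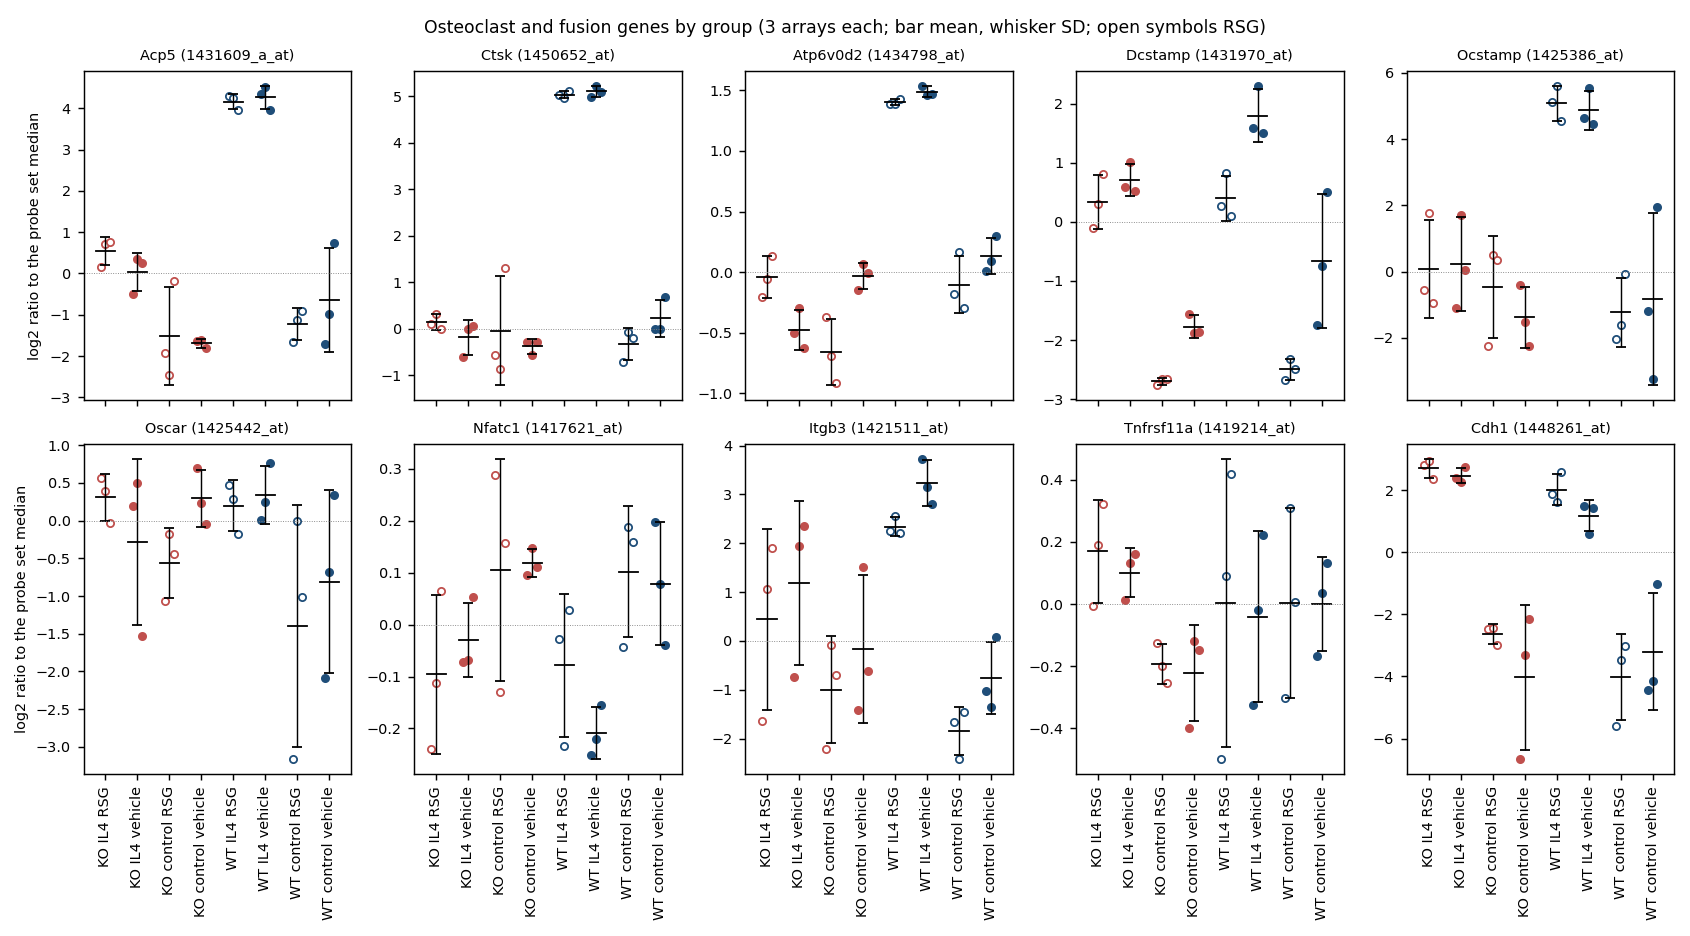
Log2 ratio of the representative probe set of each of the 10 genes in the 24 arrays, with KO groups left of WT groups, the bar at the mean and whiskers of 1 SD (n = 3 arrays per group, 1 per mouse; open symbols are RSG cultures). The WT IL-4 arrays of Acp5, Ctsk, Ocstamp and Atp6v0d2 lie above all other arrays, whereas for Cdh1 the IL-4 arrays of both genotypes lie above the controls.

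Acp5 encodes tartrate-resistant acid phosphatase, the enzyme whose staining marks osteoclasts, and it rose with IL-4 in both genotypes, by less in KO cells. Its log2 ratio was -0.49, 0.34 and 0.26 in KO IL-4 vehicle cultures of mice 4, 5 and 6, against -1.64, -1.62 and -1.82 in KO control vehicle cultures. These groups did not overlap, and the rise of 1.73 ± 0.53, adjusted p = 0.0333 passed the test but depended on every animal. Without mouse 4 it was 2.02 (adjusted p = 0.0885), without mouse 5 1.62 (adjusted p = 0.168) and without mouse 6 1.56 (adjusted p = 0.12), and it was also lost without any single KO vehicle array other than the IL-4 array of mouse 4 (adjusted p 0.0692 to 0.103). In WT IL-4 vehicle cultures of mice 1, 2 and 3 Acp5 was at 4.34, 4.51 and 3.95, against -1.70, -0.98 and 0.74 in WT control vehicle cultures. All 3 IL-4 arrays stood clear of the controls, of which mouse 3 was the highest, and the change was 4.91 ± 0.53, adjusted p = 2.81e-06, or 30.1-fold. Without the control array of mouse 3, which reads high in IL-4-activated genes and in genes of other blood cells, it was 5.60 (adjusted p = 3.8e-07). With RSG the KO change was 2.07 ± 0.53, adjusted p = 0.0198, but 2.06 (adjusted p = 0.131) without mouse 4, 1.51 (adjusted p = 0.266) without mouse 5 and 2.07 (adjusted p = 0.216) on the compared arrays alone (0.28 by the methods' t-test), and single arrays of mice 4, 5 and 6 also decided the call (adjusted p 0.0626 to 0.106). In KO control RSG the array of mouse 6, the one with the highest stromal mean, read -0.18 against -1.92 and -2.46. The change was 2.74 (adjusted p = 0.00198) without that array. The WT change with RSG was 5.39 ± 0.53, adjusted p = 9.26e-07. The difference of the IL-4 response, KO minus WT, was -3.18 ± 0.75, adjusted p = 0.00669 with vehicle, and -3.32 ± 0.75, adjusted p = 0.0066 with RSG. Without the control array of mouse 3 the first was -3.87 (adjusted p = 0.000544), and without that of mouse 6 the second was -2.66 (adjusted p = 0.0138). Quantile normalization ended the vehicle call, -2.18 (adjusted p = 0.0816), as did leaving out mouse 1, -2.62 (adjusted p = 0.0512), mouse 2, -2.89 (adjusted p = 0.0697), or mouse 4, -2.89 (adjusted p = 0.0513).

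Ctsk, the cathepsin that cleaves bone collagen, was not called with IL-4 in KO cells and rose in WT cells nearly as much as Acp5. In KO IL-4 vehicle arrays it was at -0.61, 0.0014 and 0.048, against -0.29, -0.56 and -0.28 in KO control vehicle arrays. The groups overlapped, and the change was 0.19 ± 0.39, adjusted p = 0.833 (95% interval -0.62 to 1.00). WT IL-4 vehicle arrays were at 4.99, 5.23 and 5.10, against -0.010, -0.0014 and 0.67 in WT control vehicle arrays, a rise of 4.89 ± 0.39, adjusted p = 6.92e-08 (29.6-fold). With RSG the KO arrays read 0.10, 0.33 and -0.0037 with IL-4 and -0.57, -0.87 and 1.30 without it, and the WT arrays 5.03, 4.97 and 5.12 with IL-4 and -0.72, -0.073 and -0.20 without it. The 6 WT IL-4 arrays thus stood together, above every other array, and the mean of their lower group was 4.82 above that of the next group. KO minus WT, the difference of the response was -4.70 ± 0.55, adjusted p = 1.07e-05 with vehicle and -5.18 ± 0.55, adjusted p = 6.06e-06 with RSG. The high value in KO control RSG, 1.30, was that of mouse 6, and without this array the KO response with RSG became 0.86 (adjusted p = 0.0364) and was called, and the KO minus WT difference with RSG became -4.51 (adjusted p = 2.45e-07). The stromal genes were also high in that array, and their part in its Ctsk value was not tested.

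Atp6v0d2 encodes the d2 subunit of the V-ATPase proton pump, a subunit that osteoclasts need for fusion. KO IL-4 vehicle arrays were at -0.50, -0.30 and -0.62, against -0.15, 0.064 and -0.0089 in KO control vehicle arrays. The KO IL-4 arrays lay below their controls, without overlap, but the difference of -0.44 ± 0.15, adjusted p = 0.0553 did not pass the test. The WT arrays were tight, at 1.54, 1.46 and 1.47 in WT IL-4 vehicle, against 0.0089, 0.090 and 0.29 in WT control vehicle, a change of 1.36 ± 0.15, adjusted p = 3.67e-06. With RSG the KO groups stood the other way round, at -0.21, -0.055 and 0.14 with IL-4 and -0.37, -0.69 and -0.92 without it, a rise of 0.62 ± 0.15, adjusted p = 0.0137 that was 0.61 (adjusted p = 0.127) without mouse 5, 0.40 (adjusted p = 0.218) without mouse 6, 0.49 (adjusted p = 0.0659) without KO control RSG of mouse 6 and 0.53 (adjusted p = 0.0632) without KO IL-4 RSG of mouse 6. On the compared arrays alone its adjusted p was 0.253, and by the methods' t-test 0.232. Stromal genes were higher in all KO control RSG arrays, and their part in this rise was not tested. The KO minus WT difference of the IL-4 response was -1.80 ± 0.21, adjusted p = 1.25e-05 with vehicle. With RSG it was -0.89 ± 0.21, adjusted p = 0.00981, but -0.89 (adjusted p = 0.0721) on the compared arrays alone, -0.66 (adjusted p = 0.0884) after quantile normalization, -0.85 (adjusted p = 0.0618) without mouse 1, -0.78 (adjusted p = 0.0762) without mouse 3 and -0.66 (adjusted p = 0.0888) without mouse 4. The other probe set, 1444176_at, followed the first with a correlation of 0.989 over the 24 arrays, which share animals and groups, and its change with IL-4 in WT vehicle cells was 1.70 ± 0.17. In KO RSG cells its IL-4 rise was called as well. That call was lost without KO control RSG of mouse 6, 0.50 (adjusted p = 0.0819), without mouse 5, 0.70 (adjusted p = 0.114), and on the compared arrays alone, 0.67 (adjusted p = 0.26).

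Of 21 other V-ATPase subunits, 0 rose and 2 fell with IL-4 in KO vehicle cells, with a median of -0.29 against -0.14 for all probe sets, and in WT vehicle cells 6 rose and 0 fell (median 0.56 against 0.088). After quantile normalization 1 fell in KO and 4 rose in WT cells. In KO cells Atp6v0b (-0.75 ± 0.12) and Atp6v1a (-0.61 ± 0.13) fell. Atp6v0a1, an a-subunit of the membrane sector, rose by 2.31 ± 0.13 in WT cells. The subunits Atp6v1h (1.48 ± 0.15), Atp6v1b2 (1.34 ± 0.11) and Atp6v1c1 (0.80 ± 0.18), all of the catalytic sector, rose with it. Between IL-4 vehicle cultures, 14 of the 21 were lower in KO and 0 higher, where 17.3% of all probe sets were lower in KO and 6.94% higher. After quantile normalization 6 of the 21 were lower and after centring 7, so this count depends on how the arrays are scaled.

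**Figure D2:**
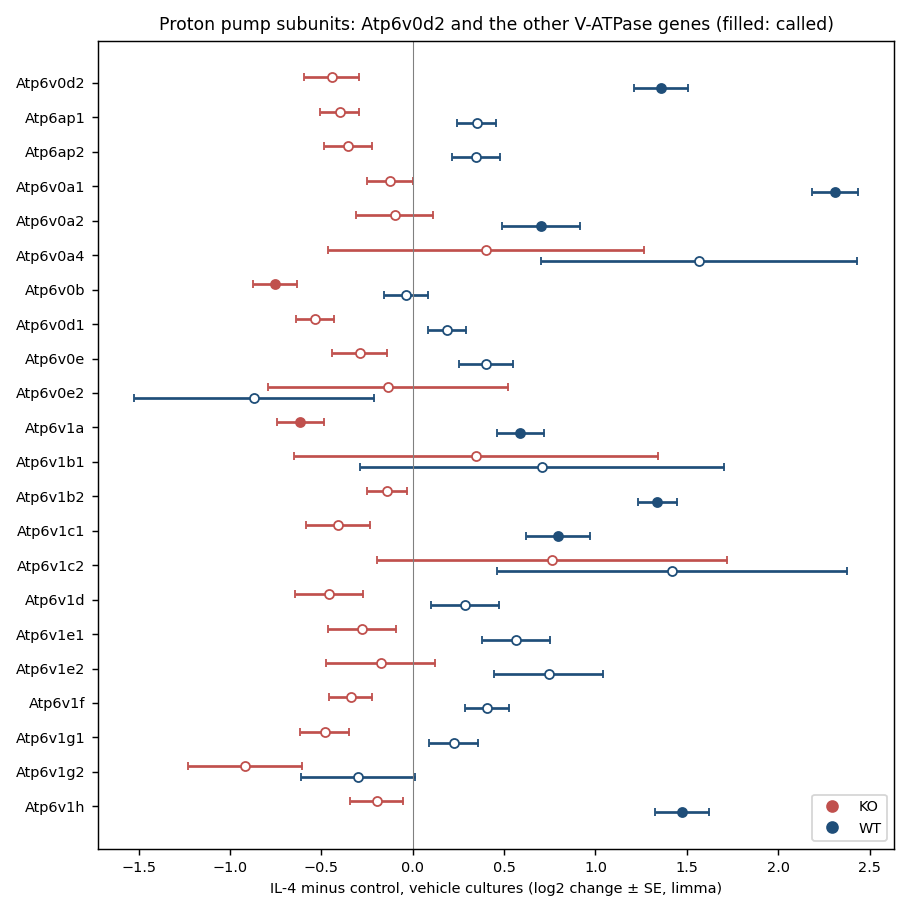
IL-4 change with vehicle (log2, ± SE of the fit) of Atp6v0d2 and 21 other V-ATPase subunits, KO cells above WT cells for each gene, filled where called. Atp6v0d2 rose by 1.36 and Atp6v0a1 by 2.31 in WT cells, and neither was called in KO cells.

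Dcstamp encodes the membrane protein without which osteoclasts and macrophage giant cells do not fuse, and it rose with IL-4 in both genotypes. KO IL-4 vehicle arrays read 0.59, 1.01 and 0.51, against -1.56, -1.89 and -1.87 in KO control vehicle arrays, a change of 2.48 ± 0.40, adjusted p = 0.000265 (5.57-fold). WT IL-4 vehicle arrays read 1.59, 2.30 and 1.49, against -1.74, -0.75 and 0.51 in WT control vehicle arrays, a change of 2.46 ± 0.40, adjusted p = 0.000215 (5.49-fold). In neither genotype did the groups overlap, and without the control array of mouse 3 the WT change was 3.04 (adjusted p = 3.98e-06). The KO minus WT difference of the response was 0.021 ± 0.56 with vehicle (95% interval -1.16 to 1.20) and 0.14 ± 0.56 with RSG (-1.03 to 1.32). The vehicle difference rests on that array too, and was -0.57 (adjusted p = 0.479) without it. The intervals leave room for more than a 2-fold difference in either direction. The level with IL-4 and vehicle was lower in KO arrays than in WT arrays by a change of -1.09 ± 0.40, adjusted p = 0.0452. That call was lost on the compared arrays alone, by the methods' t-test, with a variance trend, after quantile normalization and after centring, and without mouse 2, 4, 5 or 6 or any of 5 of the 6 single arrays (changes of -1.24 to -0.84, adjusted p 0.0504 to 0.223), KO IL-4 vehicle of mouse 5 being the exception. With IL-4 and RSG the same comparison gave -0.059 ± 0.40, adjusted p = 0.944.

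Ocstamp, a relative of Dcstamp that is also needed for osteoclast fusion, had the largest WT change of the 10 genes with vehicle and the widest SE. KO IL-4 vehicle arrays were at -1.11, 1.72 and 0.058 and KO control vehicle arrays at -0.40, -1.52 and -2.23, which overlap, with a change of 1.61 ± 1.11, adjusted p = 0.407 (95% interval -0.73 to 3.95). WT IL-4 vehicle arrays were at 4.63, 5.54 and 4.45, against -1.19, -3.24 and 1.95 in WT control vehicle arrays. The IL-4 arrays lay close together and the control arrays did not, mouse 3 being the high one, and the change was 5.70 ± 1.11, adjusted p = 0.00127. Without mouse 2 it was 4.16 (adjusted p = 0.0606), and without the control array of mouse 3 7.09 (adjusted p = 0.000121). Between IL-4 vehicle cultures Ocstamp was lower in KO by a change of -4.65 ± 1.11, adjusted p = 0.00332. The KO minus WT difference of the response was -4.09 ± 1.57, adjusted p = 0.093 with vehicle, not called, and -5.48 (adjusted p = 0.0133) without WT control vehicle of mouse 3. With RSG it was -5.77 ± 1.57, adjusted p = 0.0222 and called, a call that was lost without mouse 1, -5.35 (adjusted p = 0.118), mouse 2, -5.32 (adjusted p = 0.0756), or mouse 6, -4.83 (adjusted p = 0.141), and without single arrays of mice 1, 2, 4, 5 and 6 (adjusted p 0.0501 to 0.0562).

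Cdh1 encodes E-cadherin, an adhesion protein of epithelia that alternatively activated macrophages also make and use in fusion. KO IL-4 vehicle arrays read 2.38, 2.28 and 2.74 and KO control vehicle arrays -6.64, -3.30 and -2.15, where mouse 4 sat at the lowest ratio of the table. The change was 6.50 ± 0.95, adjusted p = 0.000116, but by the methods' t-test its adjusted p was 0.0739. WT IL-4 vehicle arrays read 1.504, 0.60 and 1.44, against -4.43, -4.14 and -1.03 in WT control vehicle arrays. No IL-4 array of either genotype fell to the level of any control, and the WT change was 4.38 ± 0.95, adjusted p = 0.00308. It was 3.60 (adjusted p = 0.0592) without mouse 1, 4.21 (adjusted p = 0.051) without mouse 2, and 5.46 (adjusted p = 0.000481) without WT control vehicle of mouse 3. With RSG the changes were 5.34 ± 0.95, adjusted p = 0.0015 in KO and 6.03 ± 0.95, adjusted p = 0.000166 in WT cells. The KO vehicle change rests in part on the control value at the floor, and with all ratios below 0.1 set to 0.1 the 4 changes were 5.39 in KO vehicle, 5.34 in KO RSG, 3.74 in WT vehicle and 5.24 in WT RSG cells. The KO minus WT difference was 2.12 ± 1.34 with vehicle (95% interval -0.71 to 4.94, adjusted p = 0.35) and -0.69 ± 1.34 with RSG (-3.52 to 2.13), both intervals including 0. Without WT control vehicle of mouse 3 the first was 1.03 (adjusted p = 0.688).

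Of 10 epithelial marker genes 0 were called with IL-4 in KO vehicle cells, and 1, Tjp3, fell in WT vehicle cells. The summed position of these 10 genes, as their mean per array, was -1.08 to -0.22 in KO IL-4 vehicle arrays, against -0.74 to 0.14 in KO control vehicle arrays, so the groups overlapped. Mast cell, neutrophil and lymphocyte genes did move with Cdh1, Dcstamp and Acp5 in KO cells, by the values given above. The mean of 5 eosinophil genes was 3.06 to 3.32 in KO IL-4 vehicle arrays, against -0.68 to 0.049 in KO control vehicle arrays. That of 8 dendritic cell genes was 1.15 to 1.44 in KO IL-4 vehicle arrays, against -1.495 to -0.21 in KO control vehicle arrays, with Ccr7 (6.36 ± 1.09) and Dpp4 (4.96 ± 0.72) the 2 called. The part of all these cells' genes in these and the other KO rises, and in the smaller KO responses and lower KO levels of other genes, was not tested.

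**Figure D3:**
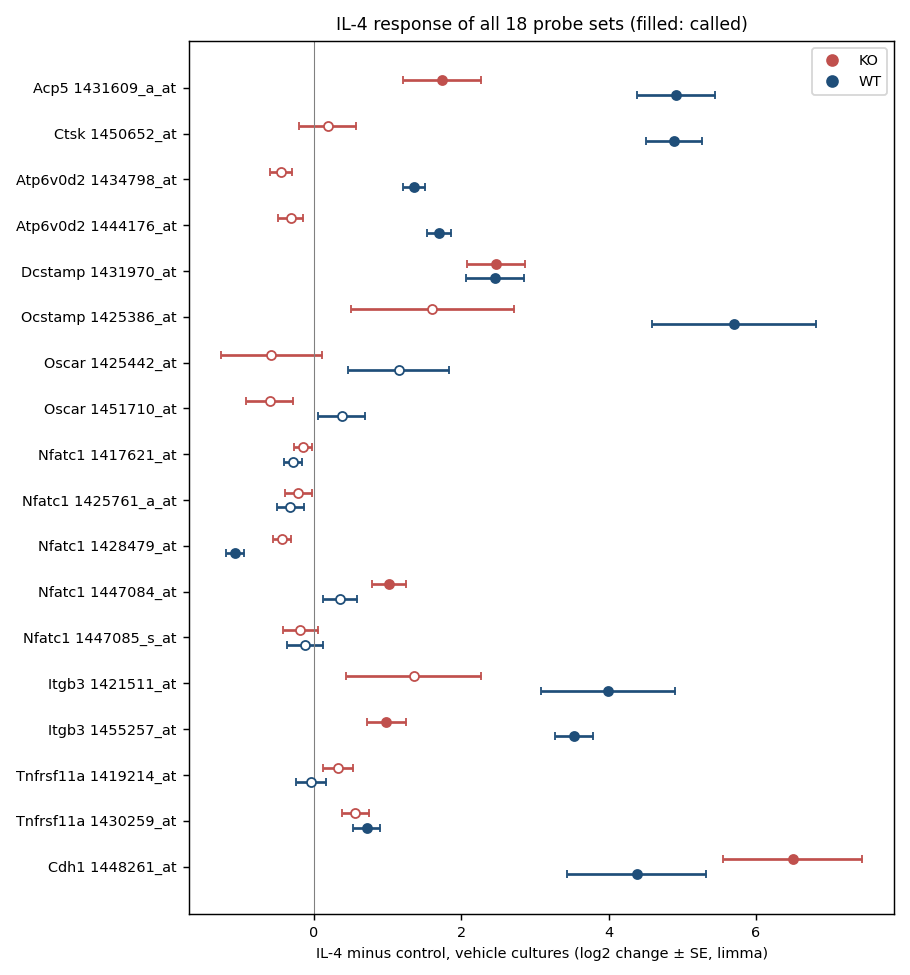
IL-4 change in vehicle cultures (log2, ± SE of the fit) of all 18 probe sets, KO cells above WT cells for each probe set, filled where called. Ctsk was 0.19 in KO and 4.89 in WT cells, whereas Dcstamp was 2.48 in KO and 2.46 in WT cells.

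Itgb3, the β chain of the αvβ3 integrin by which osteoclasts grip bone, had 2 probe sets that differed in precision. Probe set 1421511_at, which represents the gene, read -0.75, 1.95 and 2.35 in KO IL-4 vehicle arrays, against -1.42, 1.51 and -0.61 in KO control vehicle arrays. The arrays of mouse 4 were the lowest of their group in all 4 KO groups, the groups overlapped, and the change of 1.35 ± 0.91, adjusted p = 0.394 was not called. In WT cells it was at 3.73, 3.15 and 2.81 with IL-4 and at -1.02, -1.34 and 0.075 without it, a change of 3.99 ± 0.91, adjusted p = 0.00478 that was lost without mouse 1, 3.62 (adjusted p = 0.0879), or mouse 2, 3.74 (adjusted p = 0.0816). Probe set 1455257_at had narrower groups, at 0.39, 0.28 and 0.53 in KO IL-4 vehicle and -0.92, -0.48 and -0.35 in KO control vehicle arrays. Here the groups were apart in KO cells too, and the rise of 0.99 ± 0.26, adjusted p = 0.0142 was called. The chain is also part of the platelet integrin, and 9 megakaryocyte and erythroid genes had a mean of 1.23 to 1.495 in KO IL-4 vehicle arrays, against -0.52 to -0.086 in KO control vehicle arrays, with IL-4 changes such as those of Ppbp (5.36 ± 0.42), Gp9 (3.83 ± 0.85) and Itga2b (2.75 ± 0.31). Their part in the Itgb3 rise was not tested. The rise was 0.83 (adjusted p = 0.162) without mouse 4, 1.09 (adjusted p = 0.0537) without mouse 5, 0.82 (adjusted p = 0.0705) without KO control vehicle of mouse 4 and 0.92 (adjusted p = 0.0543) without KO IL-4 vehicle of mouse 6, with an adjusted p of 0.0537 on the compared arrays alone and 0.0596 by the methods' t-test. In KO cells with RSG the IL-4 rise of 1455257_at was larger, 2.66, and was called, though not by the methods' t-test (adjusted p = 0.0611). The part of the megakaryocyte and erythroid genes in that rise was not tested either. WT IL-4 vehicle arrays were at 2.59, 2.64 and 2.39 and WT control vehicle arrays at -0.63, -1.53 and -0.82, a change of 3.53 ± 0.26, adjusted p = 3.13e-08. The KO minus WT difference of the response with vehicle was -2.55 ± 0.37, adjusted p = 0.000106 by this probe set and -2.64 ± 1.29, adjusted p = 0.203 by the other, which passed only with the mouse as a block, -2.64 (adjusted p = 0.0263). With RSG the 2 differences were -1.53 ± 0.37, adjusted p = 0.0102 and -2.74 ± 1.29, adjusted p = 0.205, the second being -2.74 (adjusted p = 0.0275) with the block and the first -1.24 (adjusted p = 0.0754) without mouse 1. Both probe sets thus put the KO response below that of WT, and 1 of them called it.

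The receptors and the transcription factor of the RANK ligand pathway were not called by their representative probe sets in any of the 16 comparisons. Tnfrsf11a, which encodes RANK, lay between -0.50 and 0.42 in all 24 arrays. Its KO IL-4 vehicle arrays were at 0.012, 0.13 and 0.16 and KO control vehicle arrays at -0.40, -0.12 and -0.15, and the change was 0.32 ± 0.20, adjusted p = 0.352. In WT cells the change was -0.041 ± 0.20, adjusted p = 0.934 (95% interval -0.47 to 0.39). Its other probe set, 1430259_at, correlated with it at 0.386 over the 24 arrays. In KO vehicle cells it changed with IL-4 by 0.56 ± 0.18, adjusted p = 0.0452, below the 1.5-fold limit, and by 0.69 (adjusted p = 0.00983) after quantile normalization, above it. In WT vehicle cells it rose by 0.71 ± 0.18, adjusted p = 0.0107, to 0.52, 0.21 and 0.43, against -0.32, -0.24 and -0.43 in the controls. On the compared arrays alone this was 0.71 (adjusted p = 0.0635), without mouse 1 0.65 (adjusted p = 0.107) and without mouse 3 0.64 (adjusted p = 0.125).

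Oscar encodes a collagen receptor that gives osteoclast precursors a costimulatory signal. Its representative probe set read 0.19, 0.51 and -1.54 in KO IL-4 vehicle arrays and 0.70, 0.23 and -0.043 in KO control vehicle arrays, and 0.0094, 0.25 and 0.77 in WT IL-4 vehicle arrays, against -2.08, -0.68 and 0.34 in WT control vehicle arrays. The groups overlapped in both genotypes, and the IL-4 change was -0.58 ± 0.68, adjusted p = 0.677 in KO and 1.15 ± 0.68, adjusted p = 0.305 in WT cells. Probe set 1451710_at did not follow it (correlation -0.193) and fell with IL-4 in WT RSG cells by a change of -1.37 ± 0.32, adjusted p = 0.00502, to -0.96, -0.69 and -1.30, against 0.81, 0.49 and -0.14 in WT control RSG arrays. Without mouse 1 this was -1.17 (adjusted p = 0.0835), -1.37 (adjusted p = 0.0624) when only the arrays compared were fitted, and by the methods' t-test -1.37 (adjusted p = 0.0886). The representative went up there, by 1.59 ± 0.68, adjusted p = 0.128, and was called without WT control RSG of mouse 2, 2.28 (adjusted p = 0.0325). Since the probe sets disagree, no direction is given for the gene.

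Nfatc1, the transcription factor that RANK ligand induces and that switches on Acp5, Ctsk, Oscar and Dcstamp in osteoclasts, had 5 probe sets. The representative stayed between -0.25 and 0.29 in all 24 arrays. Its change with IL-4 was -0.15 ± 0.12, adjusted p = 0.512 in KO and -0.29 ± 0.12, adjusted p = 0.129 in WT vehicle cells (95% intervals -0.41 to 0.11 and -0.54 to -0.030). Probe set 1428479_at changed by -0.43 ± 0.12, adjusted p = 0.0236 in KO vehicle cells, short of 1.5-fold. It fell in WT vehicle cells by a change of -1.07 ± 0.12, adjusted p = 5.88e-06, at -0.48, -0.58 and -0.54 with IL-4, against 0.72, 0.60 and 0.29 without it. The KO minus WT difference was 0.65 ± 0.17, adjusted p = 0.0162, a call lost when only the arrays compared were fitted (adjusted p = 0.0623), and lost without mouse 1, 2, 5 or 6 (0.58 to 0.63, adjusted p 0.0776 to 0.0883), and below 1.5-fold without WT control vehicle of mouse 1, 0.55 (adjusted p = 0.0401). Probe set 1447084_at went the other way in KO vehicle cells, with a rise of 1.01 ± 0.23, adjusted p = 0.00482, or 0.84 (adjusted p = 0.124) without mouse 5, 1.01 (adjusted p = 0.0668) on the compared arrays alone and 1.01 (adjusted p = 0.0817) by the methods' t-test. The remaining 2, 1425761_a_at and 1447085_s_at, were not called with IL-4. Correlations of the 4 with the representative ran between -0.385 and 0.668, so the gene has no single IL-4 response in these data. In the WT cells in which Acp5 and Ctsk rose, no Nfatc1 probe set was called higher.

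Without IL-4 few differences between the genotypes were called. In control vehicle cultures 0 of the 10 genes were called between KO and WT, where 0.109% of all probe sets were called in either direction, and in control RSG cultures also 0, where 0.0999% were (limma, with 1 gene each at an unadjusted p under 0.05, and 0 each by the methods' t-test). The second probe set of Atp6v0d2 was the 1 called among the 18, at -0.48, -0.78 and -1.16 in KO control RSG arrays, against 0.055, 0.34 and -0.097 in WT control RSG arrays (-0.91 ± 0.17, adjusted p = 0.0497), and this call was lost without any 1 of the 6 mice (adjusted p 0.0563 to 0.33), after quantile normalization or centring (0.0519 and 0.0665), by the methods' t-test (0.573) and on the compared arrays alone (0.683). With IL-4 and vehicle 5 of the 10 were lower in KO and 0 higher, where, as given for the pump, 17.3% of all probe sets were lower, and 28.6% of all calls were higher in KO, or 43.6% after quantile normalization and 46.7% after centring. The 5 were Ctsk (-5.30 ± 0.39, adjusted p = 1.23e-08), Acp5 (-4.22 ± 0.53, adjusted p = 7.22e-06), Ocstamp, Atp6v0d2 (-1.96 ± 0.15, adjusted p = 2.11e-08) and Dcstamp, and the median of the 10 was -1.53 against -0.25 for all probe sets. With IL-4 and RSG 4 were lower, the same genes without Dcstamp, where 14.2% of all probe sets were lower and 5.79% higher, a share of higher calls of 28.9% that became 40.5% after quantile normalization and 45.2% after centring. Of the 18 probe sets 7 were lower and 1 higher in KO with IL-4 and vehicle, and 6 and 0 with IL-4 and RSG. The higher was Nfatc1 1447084_at (0.75), lost by the methods' t-test (adjusted p = 0.211) or without mouse 2, 3, 5 or 6. Itgb3 1455257_at was lower in both, at means of 0.40 in KO against 2.54 in WT with vehicle, and 0.74 against 1.54 with RSG. Its RSG call was lost with quantile normalization, centring or any single compared array left out (adjusted p 0.053 to 0.105). These comparisons share their arrays with the IL-4 comparisons above and are not separate evidence.

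The difference of the IL-4 response, KO minus WT, was called for 3 genes with vehicle (Acp5, Ctsk and Atp6v0d2) and for 4 with RSG (Ocstamp in addition), all lower in KO. Of all probe sets 9.84% were lower and 4.73% higher with vehicle, and 7.5% lower and 3.69% higher with RSG. With vehicle the share of higher calls was 32.4% in the deposited values, 50.5% after quantile normalization and 47.3% after centring. The 3 vehicle differences lay at -4.70 for Ctsk, -3.18 for Acp5 and -1.80 for Atp6v0d2, on a log2 scale on which the median of all probe sets was -0.24.

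RSG, tested in 4 settings, called 0 of the 10 genes in each. Of all probe sets 0.515% were called in either direction in KO cells with IL-4, 0.138% in KO controls, 0.688% in WT cells with IL-4 and 0.118% in WT controls. By limma 1, 2, 1 and 1 of the 10 genes had an unadjusted p under 0.05 in these settings, and the methods' t-test called 0. The mean of Dcstamp was lower with RSG in all 4. In KO cells with IL-4 the change was -0.37 ± 0.40, adjusted p = 0.889, and in KO controls it was -0.93 ± 0.40, adjusted p = 0.557, with arrays at -2.77, -2.67 and -2.66 with RSG and at -1.56, -1.89 and -1.87 with vehicle, which do not overlap. In WT controls its RSG arrays were at -2.67, -2.32 and -2.49, against -1.74, -0.75 and 0.51 with vehicle. The groups do not overlap, and the change of -1.83 ± 0.40, adjusted p = 0.0878 missed the threshold, while quantile normalization gave -1.97 (adjusted p = 0.0302) and leaving out WT control vehicle of mouse 1 gave -2.37 (adjusted p = 0.0178). Without WT control vehicle of mouse 3, the array at 0.51, the change shrank to -1.25 (adjusted p = 0.17). In WT cells with IL-4 the arrays were at 0.28, 0.82 and 0.095 with RSG and at 1.59, 2.30 and 1.49 with vehicle, again without overlap (-1.40 ± 0.40, adjusted p = 0.151).

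Probe set 1455257_at of Itgb3 was the only one of the 18 called with RSG. It read -3.04, -2.33 and -2.59 in WT control RSG arrays, against -0.63, -1.53 and -0.82 in WT control vehicle arrays, a change of -1.66 ± 0.26, adjusted p = 0.0146. The call was lost without mouse 1, -1.29 (adjusted p = 0.347), mouse 2, -2.09 (adjusted p = 0.0796), or mouse 3, -1.61 (adjusted p = 0.132), by the methods' t-test (adjusted p = 0.597) and when only the arrays compared were fitted, -1.66 (adjusted p = 0.435). In KO cells with IL-4 the change was 0.34 ± 0.26, adjusted p = 0.813, in KO controls -1.33 ± 0.26, adjusted p = 0.0533, or -1.64 (adjusted p = 0.0118) without the stromal-high array of mouse 6 (also called with a variance trend, after quantile normalization or centring, or when only probe sets whose median is 1 were fitted, at 0.0400 to 0.0494), and in WT cells with IL-4 -1.003 ± 0.26, adjusted p = 0.104. The RSG mean was thus higher in KO cells with IL-4, and in the other 3 settings the RSG arrays lay lower, without overlap. The first probe set of the gene was not called in any of them, with -1.08 ± 0.91, adjusted p = 0.867 in WT controls. Oscar 1451710_at was lower with RSG in WT cells with IL-4, at -0.96, -0.69 and -1.30, against -0.012, 0.41 and 0.58 with vehicle, and did not pass the test (-1.31 ± 0.32, adjusted p = 0.0741).

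Whether the RSG response itself depended on IL-4 was tested as the difference IL-4 minus control. It was called for 0 of the 10 genes in either genotype, where 0.0711% of all probe sets were called in KO and 0.0289% in WT cells (unadjusted p under 0.05 for 1 gene in KO and 0 in WT). The 1 gene was Atp6v0d2 in KO cells, whose RSG change was higher with IL-4 than without it by 1.06 ± 0.21, adjusted p = 0.0831. It was called with a variance trend, 1.06 (adjusted p = 0.0392), and without KO control RSG of mouse 4, 1.21 (adjusted p = 0.0413). Probe set 1455257_at of Itgb3 gave 1.68 ± 0.37, adjusted p = 0.135 in KO cells, and was called without KO control RSG of mouse 6, 1.98 (adjusted p = 0.0311).

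**Figure D4:**
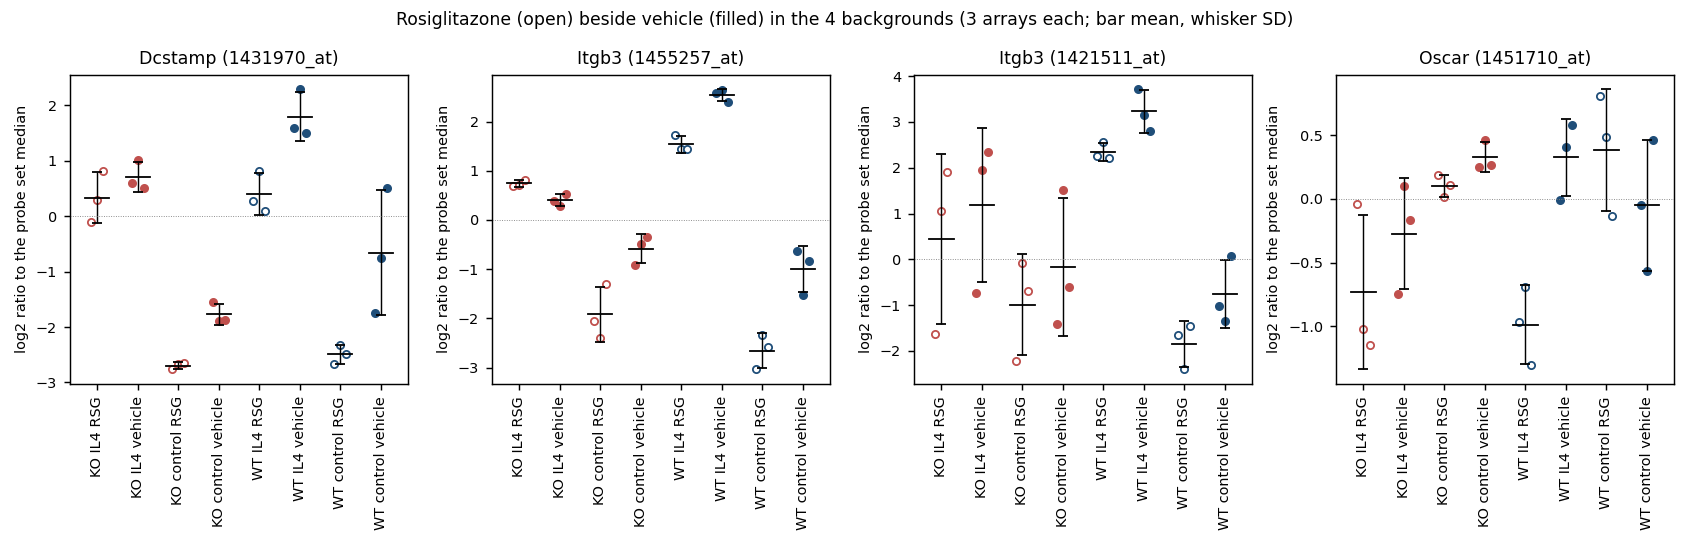
Log2 ratio per array of Dcstamp, the 2 Itgb3 probe sets and Oscar 1451710_at, with RSG cultures left of vehicle cultures and KO left of WT (bar, mean; whiskers, SD; n = 3 arrays per group). In WT controls Dcstamp and Itgb3 1455257_at are lower with RSG, with changes of -1.83 and -1.66.

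The wider pathway lists, which were drawn up with earlier results of these data known, put the 10 genes in context. Their counts stand beside the shares of all probe sets given above, 4.25% higher and 7.26% lower with IL-4 in KO vehicle cells and 7.01% higher and 5.94% lower in WT vehicle cells, and the genes named in them are examples. Of 21 measured genes of RANK and costimulatory signalling, 2 rose and 1 fell with IL-4 in KO vehicle cells (median -0.11, against -0.14 for all probe sets), and 2 rose and 3 fell in WT vehicle cells (median -0.096, against 0.088). Counts of 1 to 3 of the 21 are close to the shares of all probe sets and say nothing about the list as a whole. Tnfsf11, which encodes RANK ligand itself, rose by 3.28 ± 0.82 in KO cells, and in WT cells its change was -3.13 ± 0.82, a fall. Lymphocyte genes rose in the same KO cultures, and the stromal genes Col1a2 and Sparc fell in the same WT cultures. The part of such cells in the Tnfsf11 changes was not tested. Trem2, a receptor that signals through the adaptor TYROBP, rose in KO cells by 2.86 ± 0.76, and the kinase Syk fell there (-0.60 ± 0.14), though not after quantile normalization or centring, which left 0 of the 21 lower. In WT cells the kinases Src (2.77 ± 0.40) and Fyn (1.57 ± 0.14) rose and the NF-κB subunit Relb fell (-1.44 ± 0.15).

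Among 14 transcription factors of osteoclasts 2 rose with IL-4 in KO vehicle cells, Myc (1.45 ± 0.20) and Junb (0.73 ± 0.22). In WT vehicle cells 3 rose and 1 fell (median 0.11), Jun (1.64 ± 0.17), Myc (1.59 ± 0.20) and the coactivator Ppargc1b (1.42 ± 0.15) being higher and Fos, the AP-1 protein on which osteoclast formation depends, lower (-0.63 ± 0.20), a call lost after quantile normalization. Mitf, the factor that reads the E-box above, was lower in KO than in WT cells with IL-4 (-1.67 ± 0.33). Of 13 negative regulators 2 rose and 1 fell in KO vehicle cells (median 0.18), or 3 and 0 after quantile normalization and 5 and 0 after centring, and 2 rose and 5 fell in WT vehicle cells (median -0.11). Socs3, an inhibitor of cytokine receptors, split the genotypes, with 1.55 ± 0.51 in KO and -4.11 ± 0.51 in WT cells, both called. Lgr4, another receptor for RANK ligand that opposes RANK, rose in WT cells (2.69 ± 0.48), as did the repressor Bcl6 (1.29 ± 0.20), while Id1 fell (-2.40 ± 0.42).

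Of 26 genes of cell fusion 1 rose and 2 fell with IL-4 in KO vehicle cells (median 0.0012), and 10 rose and 1 fell in WT vehicle cells (median 0.29). In KO cells the scavenger receptor Msr1 rose (1.39 ± 0.16), and the tetraspanin Cd81 (-2.59 ± 0.25) and the mannose receptor Mrc1 (-1.11 ± 0.20) fell. The largest WT changes were those of Cldn11, a tight junction protein, at 5.27 ± 0.97, the ligand Cd200 at 2.37 ± 0.39, the tetraspanin Tspan5 at 1.88 ± 0.15 and the chemokine Ccl2, the 1 that fell, at -3.38 ± 0.49. Between IL-4 vehicle cultures 14 of the 26 were lower in KO and 1 higher, where 17.3% of all probe sets were lower and 6.94% higher, or 9 and 2 after quantile normalization and 11 and 2 after centring. Of 21 podosome and actin ring genes 1 rose in KO vehicle cells, vinculin (Vcl, 1.07 ± 0.30), and 9 rose and 1 fell in WT vehicle cells (median 0.33). The 9 included the integrin Itgax (3.39 ± 0.36), the kinase Src, counted in the RANK list too, which osteoclasts need for their ruffled border, the ubiquitin ligase Cblb (2.72 ± 0.20) and Actn1 (1.53 ± 0.12).

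Of 20 other genes of bone resorption 4 rose and 2 fell in KO vehicle cells (median -0.090), and 6 rose and 1 fell in WT vehicle cells (median 0.37), or 3 and 1 after quantile normalization. Car2, the carbonic anhydrase that supplies protons to the osteoclast pump, rose in both genotypes, by 5.12 ± 0.70 in KO and 4.11 ± 0.70 in WT cells, and so did the collagenase Mmp13, by 3.58 ± 0.29 in KO and 4.03 ± 0.29 in WT cells. Car2 and Mmp13 thus resembled Dcstamp and Cdh1 in being called in both, unlike Ctsk. Mmp9, a gelatinase of osteoclasts and neutrophils, and Rab27a, of secretory granules, rose in KO cells (2.02 ± 0.61 and 3.52 ± 1.04), where granule genes of blood cells rose as well, and the part of those cells in the result was not tested. Mmp14 fell in WT cells (-2.50 ± 0.47), where the stromal genes Col1a2 and Sparc fell as well, and the part of stromal cells was not tested. Mmp13 was also lowered by RSG in KO cells with IL-4 (-2.58 ± 0.29, adjusted p = 0.000136). Of 14 genes listed as cadherin partners and catenins 2 rose in each genotype, Vcl and Itgb7 in KO cells and Vcl and P4ha1 in WT cells. P4ha1 stood in that list but is neither a cadherin partner nor a catenin. β-Catenin, which links E-cadherin to the cytoskeleton, was lower in KO than in WT cells with IL-4 (Ctnnb1, -1.03 ± 0.10), as was p120-catenin (Ctnnd1, -0.89 ± 0.28), while Cdh1 was not called there (1.29 ± 0.95, adjusted p = 0.367), except at 1.29 (adjusted p = 0.0393) when only the arrays compared were fitted.

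The patterns of the 10 genes over the 24 arrays fell into like and unlike ones. The arrays share animals and the large IL-4 effect, so the correlations are descriptions. Acp5 and Ctsk correlated at 0.954, Acp5 and Ocstamp at 0.922, Ctsk and Atp6v0d2 at 0.912 and Ctsk and Ocstamp at 0.909. Outside the 10, Acp5 was most like Bhlhe40 (0.983), F7 (0.977) and Csf2rb (0.972). Ctsk was most like Slc7a2 (0.991), and Atp6v0d2 most like Fam20c (0.982). Dcstamp, with its rise in both genotypes, was most like the antigen presentation genes H2-Ab1 (0.965) and Cd74 (0.963), followed by Slamf8 (0.961). Cdh1 was most like Ubash3b (0.919), Lat (0.912) and Cytip (0.910), and Ocstamp like Mgl2 (0.927). For Itgb3 (Bach2, 0.892), Nfatc1 (Zhx1, 0.844), Oscar (Eci3, 0.729) and Tnfrsf11a (Vip, 0.681) the nearest gene was less near.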

How the data were processed

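Total RNA of 24 cultures was hybridised to Affymetrix mouse genome arrays, each culture on its own array. The authors deposited linear ratios: per the methods, scans were processed by GC-RMA in GeneSpring, with scaling of every array to the 50th percentile and of every probe set to its median. A last step named there, dividing by the matching vehicle control, is absent from the deposited ratios, in which vehicle cultures vary freely. GCOS and GCRMA, with no version, stand in the processing notes of the submitters. Such a ratio keeps no level and no signal over background, and precision is limited by how many arrays there are. Ratios ran from 0.01, the floor, to 1949.689. The 18 member probe sets have a median of 1. No columns of other samples were present.

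Ratios were taken to log2, and limma 3.58.1 (R 4.3.3) was fitted to 45037 probe sets, after 64 controls had been dropped (lmFit, eBayes with no variance trend, 8 group means over 24 arrays, 16 residual degrees of freedom, two-sided, 16 comparisons). A call needed a Benjamini-Hochberg adjusted p under 0.05 over all probe sets and a 1.5-fold change, the methods' thresholds. A gene was represented by a probe set ending in _at or _a_at before _s_at or _x_at, then by the lowest identifier. Symbols came from the platform annotation (34945 probe sets with 1 symbol, 932 with several, 9160 with none listed). Named genes are the 10 members, up to 4 called genes with the largest change per list and main comparison, and the 3 genes most correlated with each member, of which some are given. Pathway and marker lists were described by counts and medians, without a set test.

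Members, lists and tests were chosen with earlier results of these data known. Alternatives were the mouse as a fixed or random block, the methods' t-test, the compared arrays alone, a variance trend, quantile normalization, centring, low ratios raised to 0.1, probe sets with a median of 1, another representative, and leaving out each mouse or array. Applying them to the lists was added after seeing the data. The labels give each array a mouse number, and arrays with the same number, taken as 1 animal, are paired by that label alone. Deviations of same-mouse arrays correlated at 0.0106 on average (-0.0229 to 0.0462), with 0 of 36 pairs above 0.1. P-values of the main fit measure the spread of arrays within groups of 3 animals, pooled over the 8 groups. The cultures of 1 mouse enter that fit as independent. No pair of arrays held identical values. Promoters came from RefSeq tables of GRCm38.p6.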

Additional observations from a re-analysis of the deposited data

Results flagged for a closer look

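The IL-4 response differed between the genotypes for 3 of the 10 genes with vehicle and for 4 with RSG, by the test of the difference itself, KO minus WT on the log2 scale. With vehicle it was -4.70 ± 0.55, adjusted p = 1.07e-05 for Ctsk, -3.18 ± 0.75, adjusted p = 0.00669 for Acp5 and -1.80 ± 0.21, adjusted p = 1.25e-05 for Atp6v0d2 (limma). With RSG it was -5.77 ± 1.57, adjusted p = 0.0222 for Ocstamp, -5.18 ± 0.55, adjusted p = 6.06e-06 for Ctsk, -3.32 ± 0.75, adjusted p = 0.0066 for Acp5 and -0.89 ± 0.21, adjusted p = 0.00981 for Atp6v0d2. In each case the response was smaller in KO cells. Of all probe sets 9.84% were lower and 4.73% higher with vehicle, and 7.5% lower and 3.69% higher with RSG. The probe set of Itgb3 that does not represent the gene was also called lower in both, as given above. Genes of other blood cells rose in the KO IL-4 cultures, and their part in the smaller responses was not tested. With vehicle and with RSG the difference of Ctsk kept its call in every alternative run, whereas that of Acp5 with vehicle, and those of Atp6v0d2 and Ocstamp with RSG, were lost in the fits named with each gene above. Groups of 3 arrays are too small for a test of single outlying arrays.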

How the results depend on the processing

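No change of the 10 genes turned its direction past the threshold in any alternative. Fitted on the compared arrays alone, and likewise by the methods' t-test, 2 of the 10 genes in place of 4 were called with IL-4 in KO RSG cells and 4 in place of 7 in WT vehicle cells. The compared arrays alone leave fewer residual degrees of freedom. Quantile normalization called 1 gene (Dcstamp) in place of 0 for RSG in WT controls, a variance trend called 1 (Atp6v0d2) in place of 0 for the IL-4 minus control difference of the RSG response in KO, and the probe set with the largest SD as representative called 1 (Atp6v0d2) in place of 0 for KO against WT in control RSG cultures. The cause was not tested. Choosing by the largest SD also brought in Nfatc1 1447084_at and Tnfrsf11a 1430259_at. The first was called higher with IL-4 in KO vehicle cells, and higher in KO than in WT cells with IL-4 and vehicle. The second was called higher with IL-4 in WT vehicle cells, so those counts differ as well. Leaving out 1 mouse or array gave 2 to 3 called genes with IL-4 in KO vehicle and 2 to 4 in KO RSG cells, 4 to 7 in WT vehicle and 6 to 8 in WT RSG cells, 2 to 4 for the KO minus WT difference with vehicle or RSG, 4 to 5 and 4 for KO against WT with IL-4 and vehicle or RSG, and 0 to 1 for the IL-4 minus control difference of the RSG response in KO and for RSG in WT controls. With the mouse as a fixed block the difference of the IL-4 response was called for 4 genes with vehicle and 5 with RSG, in place of 3 and 4, Itgb3 being the gain in both, and the other counts stayed at 3 and 4 for IL-4 in KO cells, 7 and 7 in WT cells and 0 for RSG. The block could not be fitted for KO against WT. Over all probe sets the methods' t-test called 562 with IL-4 in KO RSG cells, against 3076 by limma, and 2914 in WT vehicle cells, against 5831, and quantile normalization called 7018 between KO and WT with IL-4 and vehicle, against 10920.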
